A study of Mus musculus with 6 samples.

Results

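The genes described here are 32 genes of cholesterol synthesis, fatty acid synthesis, their control by SREBP transcription factors, and sterol export under LXR, out of 55416 genes in the count tables. They were taken by name and matched through their Ensembl identifiers. The rule uses no measured value, but the list was drawn up with earlier results of these data known. Expression was measured by RNA sequencing in 6 libraries of CD3+ T cells, the fraction of lymphocytes carrying the T cell receptor complex, from spleens of C57BL/6 mice. All mice are labelled WT and all had received a graft. There were 3 libraries from allograft recipients, whose graft came from a genetically different donor, and 3 from isograft recipients, whose graft came from a genetically identical donor. The cells had been kept in culture medium with serum, a source of cholesterol and fatty acids, before RNA extraction. The labels leave out the organ grafted, the donor strain, the age of the mice, the time after grafting and the time in culture. Nothing in them ties the libraries to separate mice, so p-values measure only how these libraries vary, and part of that may be technical.

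Cells make cholesterol from acetyl-CoA through the mevalonate pathway, which ends in farnesyl diphosphate, and then through squalene and lanosterol. SREBP2, encoded by Srebf2, drives the genes of this route, and SREBP1, encoded by Srebf1, drives those of fatty acid synthesis more than those of sterol synthesis. Both are held in the endoplasmic reticulum by SCAP and INSIG while sterols are plentiful and are released when sterols run low. Oxysterols activate LXR, a nuclear receptor that induces the exporters ABCA1 and ABCG1 and the ubiquitin ligase MYLIP, which removes lipoprotein receptors from the cell surface. In T cells, activation is known to switch on SREBP and to lower LXR signalling before the cells divide.

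Of the members with a promoter in the RefSeq table, 8 are shown. They are Hmgcs1, where a match to the sterol regulatory element was found, and 7 that stood among the larger changes of their lists. Capitals mark searched motifs found on either strand of the gene. The sterol regulatory element was searched as TCACNCCAC. The E-box was searched as CACGTG. The NF-Y motif was searched as CCAAT. The Sp1 motif was searched as GGGCGG. On the opposite strand the NF-Y motif reads as its reverse complement, and so does the Sp1 motif. In Fasn an NF-Y match on the strand of the gene overlaps a match on the opposite strand. Each runs from 250 bases before to 50 bases after the RefSeq start, 5′ to 3′ on the strand of the gene, on GRCm38.p6.
Hmgcs1 (chr13:119690101-119690400, plus strand): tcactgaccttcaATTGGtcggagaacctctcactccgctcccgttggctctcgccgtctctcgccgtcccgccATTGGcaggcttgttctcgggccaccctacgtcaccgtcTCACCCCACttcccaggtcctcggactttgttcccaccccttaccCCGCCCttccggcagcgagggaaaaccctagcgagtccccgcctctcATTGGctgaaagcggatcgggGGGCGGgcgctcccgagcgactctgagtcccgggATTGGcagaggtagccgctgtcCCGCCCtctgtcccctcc
Idi1 (chr13:8885356-8885655, plus strand): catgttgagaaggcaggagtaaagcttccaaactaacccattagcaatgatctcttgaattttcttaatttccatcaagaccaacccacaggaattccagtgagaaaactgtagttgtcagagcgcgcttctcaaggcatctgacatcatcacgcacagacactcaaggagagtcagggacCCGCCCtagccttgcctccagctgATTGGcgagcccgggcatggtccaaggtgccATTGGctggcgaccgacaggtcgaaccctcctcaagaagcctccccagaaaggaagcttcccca
Cyp51 (chr5:4104648-4104947, minus strand): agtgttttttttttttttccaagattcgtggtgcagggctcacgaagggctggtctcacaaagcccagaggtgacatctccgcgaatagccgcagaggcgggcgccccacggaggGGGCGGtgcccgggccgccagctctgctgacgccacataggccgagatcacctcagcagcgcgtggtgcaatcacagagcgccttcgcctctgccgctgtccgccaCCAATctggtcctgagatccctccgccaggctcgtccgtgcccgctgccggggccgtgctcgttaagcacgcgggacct
Msmo1 (chr8:64733529-64733828, minus strand): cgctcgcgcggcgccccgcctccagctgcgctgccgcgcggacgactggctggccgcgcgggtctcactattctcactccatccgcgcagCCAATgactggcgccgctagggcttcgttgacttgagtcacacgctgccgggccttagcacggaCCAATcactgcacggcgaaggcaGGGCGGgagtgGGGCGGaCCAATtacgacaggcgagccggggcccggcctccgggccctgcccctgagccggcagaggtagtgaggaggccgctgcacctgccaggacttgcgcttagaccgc
Fasn (chr11:120824498-120824797, minus strand): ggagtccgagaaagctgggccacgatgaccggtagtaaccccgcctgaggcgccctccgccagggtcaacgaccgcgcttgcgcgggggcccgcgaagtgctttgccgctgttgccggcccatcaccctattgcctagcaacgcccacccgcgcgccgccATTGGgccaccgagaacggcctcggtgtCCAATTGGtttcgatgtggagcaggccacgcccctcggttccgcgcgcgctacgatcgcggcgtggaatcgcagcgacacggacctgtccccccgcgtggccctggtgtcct
Abca1 (chr4:53159846-53160145, minus strand): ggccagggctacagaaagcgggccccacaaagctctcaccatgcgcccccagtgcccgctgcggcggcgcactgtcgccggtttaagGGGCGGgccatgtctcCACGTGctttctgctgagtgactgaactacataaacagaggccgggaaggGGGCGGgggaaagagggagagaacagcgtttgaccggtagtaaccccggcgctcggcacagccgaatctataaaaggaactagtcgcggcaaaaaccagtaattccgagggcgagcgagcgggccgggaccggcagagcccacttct
Insig1 (chr5:28071162-28071461, plus strand): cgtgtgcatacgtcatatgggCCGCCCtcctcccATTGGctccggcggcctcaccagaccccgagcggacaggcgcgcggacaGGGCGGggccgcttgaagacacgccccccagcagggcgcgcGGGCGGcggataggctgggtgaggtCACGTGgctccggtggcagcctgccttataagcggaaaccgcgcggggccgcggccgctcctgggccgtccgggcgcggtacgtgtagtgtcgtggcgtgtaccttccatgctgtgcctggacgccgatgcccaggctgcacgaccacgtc
Mylip (chr13:45389492-45389791, plus strand): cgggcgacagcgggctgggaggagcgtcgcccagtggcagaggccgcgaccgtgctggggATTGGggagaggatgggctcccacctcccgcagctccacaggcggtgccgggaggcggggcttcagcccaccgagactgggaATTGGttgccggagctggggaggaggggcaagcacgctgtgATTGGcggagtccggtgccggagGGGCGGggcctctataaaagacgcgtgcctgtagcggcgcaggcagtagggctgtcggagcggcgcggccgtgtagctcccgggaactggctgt

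Of the 32 members, 25 had a promoter in the RefSeq table. Among the 14 sterol synthesis enzymes with one, the NF-Y motif stood in 13 and the Sp1 motif in 13. Over all genes in that table, 41.1% had the NF-Y motif and 38.2% the Sp1 motif in at least 1 promoter. These shares include genes that were not tested here, and the shares among tested genes were not computed. The sterol regulatory element, in the form searched, was found in 1 member, Hmgcs1, at bases -137 to -129 from the start (the start base is +1), against 1.44% of all genes. The E-box was found in Insig1 at -101 to -96, in Hsd17b7, Dhcr7, Sc5d, Scap and Abca1, against 8.09% of all genes. The LXR element, a direct repeat of AGGTCA with any 4 bases between the copies, was found in 4 genes of the table and in no member. With only 0.0148% of the table's genes matching, this exact search cannot show that a member lacks such an element. The NF-Y motif was in 10 of 12 members that were higher, in 6 of 7 that were lower and in 3 of 6 that were not called. Mylip, which fell, holds 3 NF-Y motifs and Idi1, which rose, holds 2. A match describes letters in this window and was not set against binding data. Each motif was searched only in the exact form given, so a promoter without a match may still hold a variant of it.

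Library totals were between 30078504 and 34123777 counts in allograft libraries and between 30066137 and 37821738 in isograft libraries. T cell markers were present throughout, with Cd3e, the CD3 epsilon chain, at 71.5 to 93.5 CPM in allograft and 119 to 125 CPM in isograft libraries. Of the 12 T cell markers, Cd5, Cd6 and Zap70 were called higher, with log2 fold changes of 1.38, 0.60 and 1.18, and Cd3d, Cd3e, Cd3g, Cd247 and Cd28 lower. CPM is a count relative to the library total after TMM scaling, put on one common scale for every library. B cell markers were also abundant, with 3 called higher and 5 lower. Such counts of markers stand beside 28.7% of all genes tested called higher and 29.1% called lower. The 10 genes of the B cell list summed to 1307 to 1417 CPM in allograft and 1369 to 1476 CPM in isograft libraries, and the 12 genes of the T cell list to 1688 to 1818 CPM in allograft and 1994 to 2068 CPM in isograft libraries. In such mixed samples fewer cells of a type and less RNA per cell cannot be told apart, and the part of B cells in the results below was not tested.

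By edgeR's quasi-likelihood test with Benjamini-Hochberg adjustment over 14926 genes, at adjusted p below 0.05, 15 of the 32 members rose in allograft libraries, 9 fell and 8 were not called. All 32 passed the filter on low counts. Over all genes tested, 57.8% were called, 28.7% higher and 29.1% lower, so the members' 46.9% that rose lies above the background share and the 28.1% that fell lies at it. The median log2 fold change, allograft minus isograft, was 0.28 for the members and -0.014 for all genes tested. Groups did not overlap for 29 of the 32 members, against 63.3% of all genes. Sterol synthesis enzymes rose in 9 of 17 cases and fell in 4. Of the 6 fatty acid synthesis genes 2 rose and 1 fell, and of the LXR and efflux genes 3 of 4 fell, each by more than 2-fold, while the other was not called. With total counts in place of TMM scaling, all log2 fold changes moved by a median of -0.22, 2973 genes were higher and 6093 lower (32.8% of calls higher, against 49.6% with TMM), and 13 members were called higher and 13 lower.

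**Figure D1:**
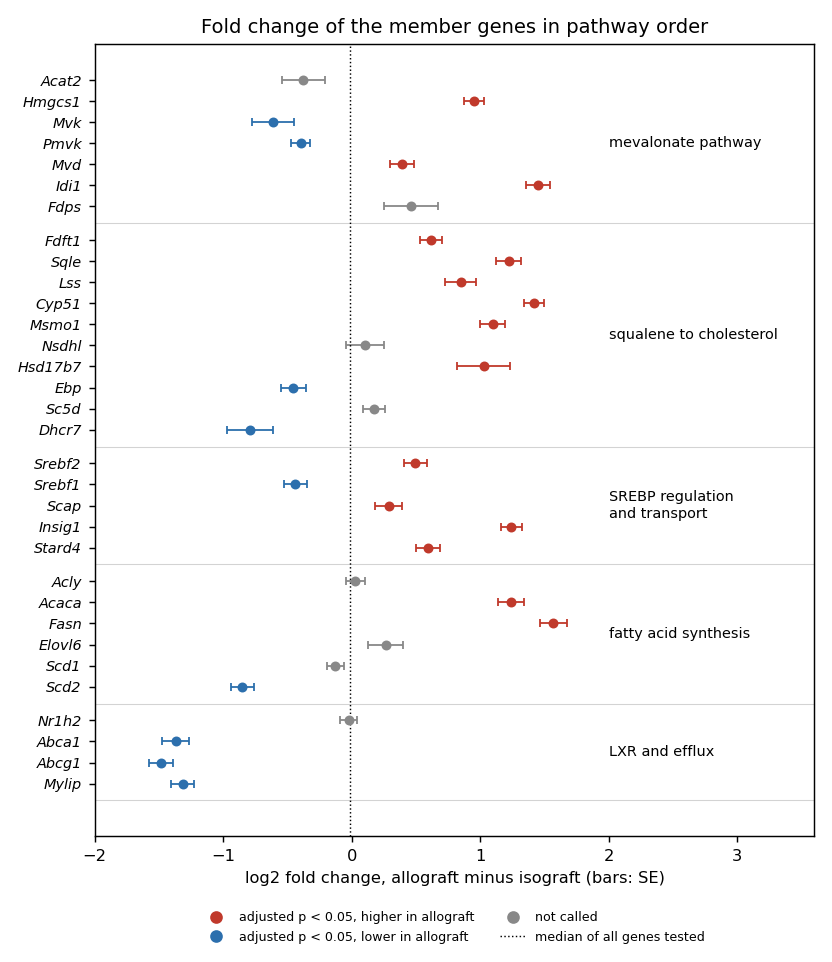
Log2 fold change (allograft minus isograft, horizontal axis) of each of the 32 genes, in pathway order down the page, with bars of 1 SE from edgeR and 3 libraries per group. Idi1, Cyp51 and Fasn lie farthest to the right and Abca1, Abcg1 and Mylip farthest to the left; the signs of Nsdhl, Sc5d and Acly, which are not called, turn with total counts.

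**Figure D2:**
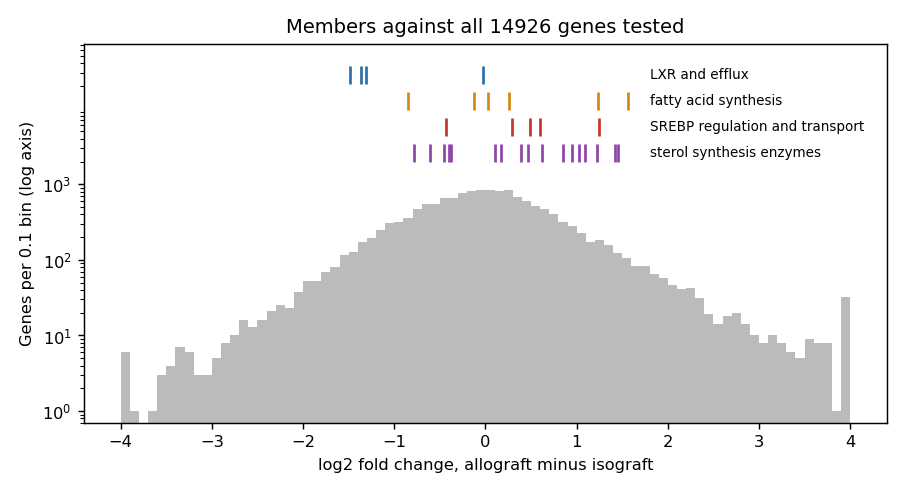
Histogram of the log2 fold change (allograft minus isograft) of all 14926 genes tested, in bins of 0.1 on a log axis, with the end bins holding everything beyond them. The ticks above it, whose height has no scale, mark the members of each list: sterol enzymes spread from -0.79 to 1.45, and 3 of the 4 LXR and efflux genes lie between -1.49 and -1.31.

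In the mevalonate pathway, 3 of 7 enzymes rose (42.9%) and 2 fell (28.6%), against 28.7% and 29.1% of all genes tested. Idi1, the isomerase that makes dimethylallyl diphosphate, rose most. Idi1 (chromosome 13, 8935537 to 8942487, GRCm39) had 79.8, 95.0 and 97.8 CPM in allograft libraries and 37.4, 30.3 and 32.2 CPM in isograft libraries. Every allograft library stood more than 2-fold above every isograft library, and the log2 fold change was 1.45 ± 0.09 (SE; edgeR adjusted p = 1.72e-10). Hmgcs1, the cytosolic synthase that makes HMG-CoA (chromosome 13, 120151915 to 120169796), had 86.6, 90.2 and 86.3 CPM in allograft and 44.8, 42.4 and 49.0 CPM in isograft libraries. The groups stood well apart, with a log2 fold change of 0.95 ± 0.08 (edgeR adjusted p = 2.41e-09). Mvd, the decarboxylase between the kinases and Idi1, rose less, by 0.39 ± 0.09 (edgeR adjusted p = 0.00157), and total counts ended that call (0.17, edgeR adjusted p = 0.141).

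The 2 kinases of the same pathway fell. Pmvk, phosphomevalonate kinase, had 48.3, 48.2 and 47.3 CPM in allograft and 61.4, 64.3 and 63.7 CPM in isograft libraries. Its log2 fold change was -0.40 ± 0.07 (edgeR adjusted p = 1.05e-04), the groups did not overlap and its spread within groups was small. Mvk, mevalonate kinase, had 4.13, 5.62 and 4.76 CPM in allograft and 7.38, 6.59 and 8.23 CPM in isograft libraries, a log2 fold change of -0.61 ± 0.16 (edgeR adjusted p = 0.00319). The first and last steps in the list could not be read as firmly. Acat2, the cytosolic thiolase, stood at 3.84 to 4.38 CPM in allograft and 4.65 to 5.71 CPM in isograft libraries (-0.37 ± 0.17, edgeR adjusted p = 0.067), and it passed with total counts (-0.60) and without isograft replicate 3 (-0.47, edgeR adjusted p = 0.0417). Fdps, farnesyl diphosphate synthase, stood at 2.95 to 3.48 CPM in allograft and 2.22 to 2.56 CPM in isograft libraries (0.46 ± 0.21, edgeR adjusted p = 0.067). Both levels are uncertain, because stretches at least 97% identical to transcripts of other genes cover 65.6% of the longest Acat2 transcript, from its neighbours Acat3 and Tcp1, and 91.4% of that of Fdps. Such stretches also cover 33.3% of Idi1.

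From squalene onwards 6 of 10 enzymes rose (60%) and 2 fell (20%), against 28.7% and 29.1% of all genes tested. Sqle and Cyp51 rose most. Sqle, squalene epoxidase (chromosome 15, 59186926 to 59203041), had 33.4, 39.3 and 35.5 CPM in allograft and 14.5, 15.9 and 15.9 CPM in isograft libraries, a log2 fold change of 1.22 ± 0.10 (edgeR adjusted p = 1.8e-09). Cyp51, the lanosterol demethylase (chromosome 5, 4131145 to 4154746), had 92.1, 102 and 94.1 CPM in allograft and 34.7, 35.7 and 37.3 CPM in isograft libraries. The lowest allograft library was more than 2-fold above the highest isograft library, with a log2 fold change of 1.42 ± 0.08 (edgeR adjusted p = 5.86e-12). Msmo1, the methylsterol oxidase that acts after Cyp51 (chromosome 8, 65171173 to 65186826), rose by 1.10 ± 0.10, at 37.1, 41.8 and 42.6 CPM in allograft and 20.7, 17.7 and 18.3 CPM in isograft libraries.

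Fdft1, squalene synthase, and Lss, lanosterol synthase, rose by less. Fdft1 averaged 41.2 ± 1.08 CPM in allograft and 26.8 ± 1.95 CPM in isograft libraries (SD, n = 3 each), and Lss averaged 20.4 ± 1.97 CPM in allograft and 11.3 ± 1.51 CPM in isograft libraries. Their log2 fold changes were 0.62 ± 0.09 for Fdft1 and 0.85 ± 0.12 for Lss. Of the exon bases of Fdft1, 18.8% overlap Ctsb on the opposite strand, and reads there are not assigned to either gene by the counting tool's defaults. Near-identical stretches of Ctsb and Gm6781 cover 54.7% of the longest Fdft1 transcript. Hsd17b7, a ketosteroid reductase, rose to 3.65, 4.28 and 4.66 CPM in allograft libraries, against 1.97, 2.2 and 1.996 CPM in isograft libraries, and rests on 64 to 131 counts per library.

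Of the last steps, Dhcr7 and Ebp fell and Sc5d was not called. Dhcr7, the reductase that makes cholesterol from its direct precursor, had 3.40, 3.24 and 2.74 CPM in allograft and 5.23, 5.35 and 5.64 CPM in isograft libraries. Its log2 fold change, the lowest of the sterol enzymes, was -0.79 ± 0.18 (edgeR adjusted p = 7.71e-04), with 77 to 217 counts per library. Ebp, the sterol isomerase, fell by 0.45 on the log2 scale (SE 0.10), at 21.2, 19.3 and 20.1 CPM in allograft and 28.3, 29.7 and 25.0 CPM in isograft libraries. Sc5d, the sterol desaturase, was at 32.8 to 37.3 CPM in allograft and 30 to 32.4 CPM in isograft libraries, and 0.17 ± 0.09 did not pass (edgeR adjusted p = 0.092). It passed with the gene length offset (0.21, edgeR adjusted p = 0.0409), and its sign turned with total counts (-0.046, edgeR adjusted p = 0.681). Nsdhl, the sterol dehydrogenase, overlapped between groups at 6.97 to 8.28 CPM in allograft and 5.86 to 7.83 CPM in isograft libraries (0.10 ± 0.15), and its sign turned with total counts (-0.12).

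**Figure D3:**
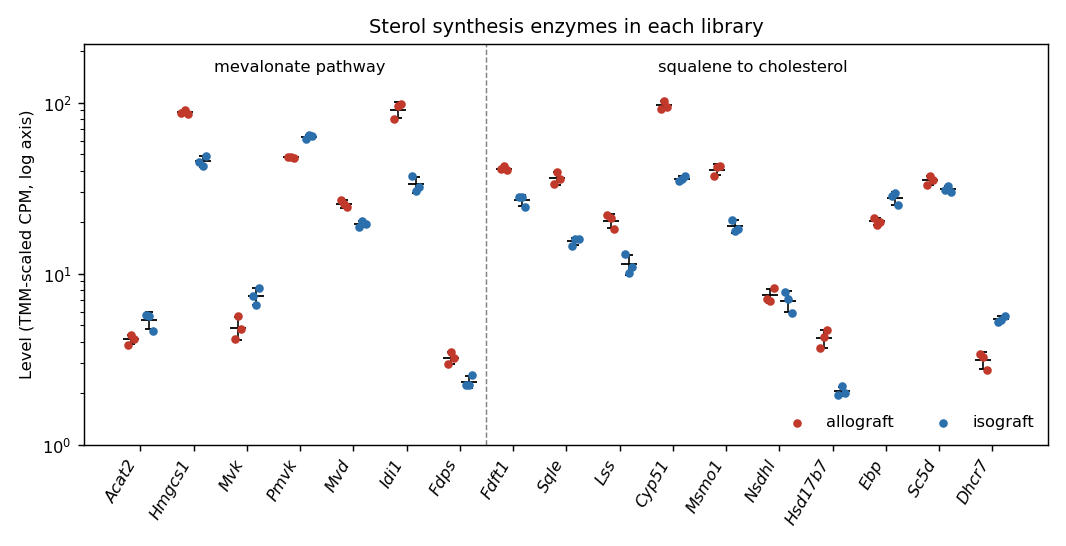
Level of each sterol synthesis enzyme in each library (TMM-scaled CPM, log axis), allograft left and isograft right of each gene name, with the mean and SD of 3 libraries as black bars. Hmgcs1, Idi1, Sqle, Cyp51 and Msmo1 stand higher in every allograft library, while Mvk, Pmvk, Ebp and Dhcr7 stand lower; Nsdhl overlaps.

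The 17 sterol enzymes together summed to 546, 590.1 and 569.9 CPM in allograft and 363, 356 and 355 CPM in isograft libraries. The allograft sum was 1.59 times the isograft sum, and the groups were far apart relative to their spread. Sums weigh abundant genes, so Cyp51, Idi1 and Hmgcs1 carry most of this difference. Per kilobase of exon, which allows genes to be compared, the order of levels changed. In isograft libraries Pmvk stood highest of the sterol enzymes at 36.9 ± 0.88 CPM per kilobase, with Ebp at 11.97 ± 1.02, Mvd at 10.5 ± 0.387, Hmgcs1 at 9.89 ± 0.726 and Idi1 at 9.49 ± 1.05 CPM per kilobase. Mvd differed from Hmgcs1, and Hmgcs1 from Idi1, by less than the larger SD. In allograft libraries Pmvk at 28.0 ± 0.345 and Idi1 at 25.9 ± 2.77 CPM per kilobase differed by less than the SD of Idi1, and Cyp51 at 21.8 ± 1.21 and Hmgcs1 at 19.1 ± 0.472 CPM per kilobase came next.

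The regulators moved unequally. Insig1, the retention protein whose gene is itself an SREBP target (chromosome 5, 28276361 to 28283660), had 58.8, 59.1 and 55.5 CPM in allograft and 26.2, 23.5 and 23.6 CPM in isograft libraries. It rose by 1.24 ± 0.08 on the log2 scale (edgeR adjusted p = 1.53e-10), with no overlap between groups. Srebf2 had 159.9, 139.5 and 132 CPM in allograft and 89.1, 107 and 110.2 CPM in isograft libraries, a rise of 0.49 ± 0.09 (edgeR adjusted p = 1.06e-04). Srebf1 went the other way, at 31.4, 29.2 and 27.7 CPM in allograft and 38.6, 38.8 and 42.2 CPM in isograft libraries, a log2 fold change of -0.44 ± 0.09 (edgeR adjusted p = 2.36e-04).

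Set against each other within each library and per exon length, Srebf2 was 3.99, 3.75 and 3.74 times Srebf1 in allograft libraries and 1.81, 2.17 and 2.05 times in isograft libraries. This ratio does not depend on the scaling between libraries. The groups did not overlap, and with 3 libraries against 3 a two-sided exact permutation test cannot give a p below 0.1. Stard4, a carrier of cholesterol between membranes, rose by 0.60 ± 0.09, at 29.6 ± 1.25 CPM in allograft and 19.6 ± 1.14 CPM in isograft libraries (SD, n = 3 each). Scap, the escort of SREBP, was at 17.0 to 18.1 CPM in allograft and 13.2 to 15.5 CPM in isograft libraries. Its rise of 0.29 ± 0.11 (edgeR adjusted p = 0.0259) was lost with total counts, with no low-count filter and in 4 of the 6 fits that left out a library, where the adjusted p ran to 0.129 without isograft replicate 2.

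Of the 6 fatty acid synthesis genes, Fasn and Acaca rose, Scd2 fell and the other 3 were not called. These shares, 33.3% higher and 16.7% lower, stand beside 28.7% and 29.1% of all genes tested. Fasn, the synthase that builds palmitate (chromosome 11, 120696672 to 120715373), had 169, 173 and 149 CPM in allograft and 45.2, 57.3 and 62.9 CPM in isograft libraries. It had the largest rise of all 32 members, 1.57 ± 0.10 on the log2 scale (edgeR adjusted p = 2.96e-09), beyond 92.1% of all genes in absolute size. Acaca, the acetyl-CoA carboxylase that supplies malonyl-CoA (chromosome 11, 84020498 to 84292477), had 42.0, 52.9 and 46.4 CPM in allograft and 20.4, 18.6 and 21.0 CPM in isograft libraries. For both genes every allograft library stood above every isograft library, and the log2 fold change of Acaca was 1.24 ± 0.10 (edgeR adjusted p = 1.7e-09). A near-identical copy covers 64.3% of the longest Acaca transcript, and reads that map to both places are left out by the counting tool's defaults.

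The desaturase genes Scd1 and Scd2, which make monounsaturated fatty acids, lie side by side on chromosome 19. Scd2 had 29.3, 34.5 and 28.4 CPM in allograft and 53.5, 59.2 and 53.5 CPM in isograft libraries, a log2 fold change of -0.85 ± 0.09 (edgeR adjusted p = 1.07e-07). Scd1 was the most abundant member per kilobase of exon in both groups, at 56.4 ± 2.52 CPM per kilobase in allograft and 61.6 ± 1.35 in isograft libraries (SD, n = 3 each). Its libraries stood at 265, 289 and 274 CPM in the allograft group and 300, 296 and 309 CPM in the isograft group, and -0.13 ± 0.07 did not pass (edgeR adjusted p = 0.114). It passed with total counts (-0.35) and when 5 CPM in 3 libraries was required (-0.15, edgeR adjusted p = 0.0448). Per exon length Scd1 was 10.1, 9.36 and 10.8 times Scd2 in allograft and 6.27, 5.58 and 6.45 times in isograft libraries, with no overlap between groups.

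Acly, which splits citrate into cytosolic acetyl-CoA, overlapped between groups at 129, 122 and 131 CPM in allograft and 114, 126 and 135 CPM in isograft libraries (0.028 ± 0.08, edgeR adjusted p = 0.77). Its sign turned with total counts (-0.19, edgeR adjusted p = 0.0279) and without isograft replicate 1 (-0.038). Elovl6, the elongase that acts on palmitate, was at 10.7, 9.04 and 12.3 CPM in allograft and 8.95, 8.93 and 8.82 CPM in isograft libraries. Its difference of 0.26 ± 0.13 did not pass (edgeR adjusted p = 0.0993) and did so without allograft replicate 2 (0.37, edgeR adjusted p = 0.036) and with the gene length offset (0.33, edgeR adjusted p = 0.0407), while it was 0.14 without allograft replicate 3 (edgeR adjusted p = 0.405). The 6 genes summed to 645, 681 and 641 CPM in allograft and 542, 566 and 589.9 CPM in isograft libraries. The allograft sum was 1.16 times the isograft sum. Scd1 was the largest part of both sums but averaged lower in the allograft group, at 276 against 301.5 CPM. Fasn and Acaca carried most of the rise in the sum.

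Abca1, Abcg1 and Mylip, all targets of LXR, fell. Abcg1, which exports sterols to lipoprotein particles (chromosome 17, 31276649 to 31336962), had 22.0, 21.7 and 18.2 CPM in allograft and 53.8, 60.03 and 59.8 CPM in isograft libraries. It had the largest fall of the members, -1.49 ± 0.09 (edgeR adjusted p = 5.69e-11). Abca1, the exporter to lipid-poor apolipoprotein (chromosome 4, 53030787 to 53159895), had 14.6, 17.5 and 20.6 CPM in allograft and 48.0, 44.8 and 43.1 CPM in isograft libraries, a log2 fold change of -1.37 ± 0.11 (edgeR adjusted p = 2.33e-09). For both exporters the highest allograft library stood more than 2-fold below the lowest isograft library. Mylip (chromosome 13, 45543218 to 45565498) had 68.0, 61.5 and 81.3 CPM in allograft and 168, 171 and 185 CPM in isograft libraries, a log2 fold change of -1.31 ± 0.09 (edgeR adjusted p = 4.15e-10).

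The only LXR receptor gene among the lists was not called, and no other was read. Nr1h2, which encodes LXR beta, had 136, 142 and 135 CPM in allograft and 141, 141 and 137 CPM in isograft libraries, and the groups overlapped (-0.022 ± 0.07, edgeR adjusted p = 0.804). With total counts it was called lower, at -0.24 (edgeR adjusted p = 0.00413), about the shift of all genes under that scaling. Macrophages also express Abca1 and Abcg1 strongly. The 12 macrophage and monocyte markers summed to 85.3 to 96.1 CPM in allograft and 101 to 109.9 CPM in isograft libraries. Of these, Cd68 (0.54) and Vcam1 (1.09) were called higher, and Csf1r (-0.62), Adgre1 (-0.92) and Lyz2 (-0.55) lower, the values being log2 fold changes. Their complement genes C1qa, C1qb and C1qc stood at 0.569 to 2.63 CPM in allograft and 1.47 to 2.66 CPM in isograft libraries, with log2 fold changes of -0.0037, 0.027 and -0.59 that did not pass. The 7 dendritic cell markers summed to 74.2 to 79.2 CPM in allograft and 31.9 to 33.9 CPM in isograft libraries. Of the 5 that passed the filter 1 was called, Zbtb46, a transcription factor of dendritic cells. It stood at 55.2 to 61.4 CPM in allograft and 13.1 to 14.2 CPM in isograft libraries. The difference between the sums lies mainly in this gene. The other 4 were not called, with log2 fold changes of 0.046 for Flt3, 0.076 for Xcr1, -0.55 for Clec9a and -0.28 for Itgax. Of the 6 neutrophil markers, Ly6g, Mpo, Elane and Retnlg were each at 0 in 5 of the 6 libraries, while S100a9 stood at 1.14 to 2.41 CPM in allograft and 1.87 to 2.12 CPM in isograft libraries and was not called. The part of these cells in the fall of the exporters was not tested.

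**Figure D4:**
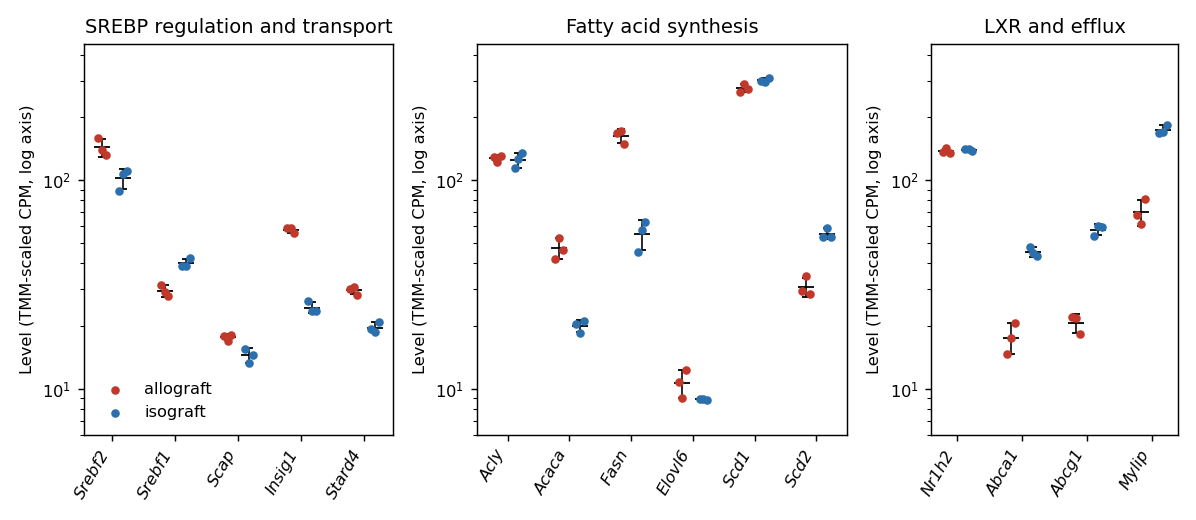
Level of each SREBP regulator, fatty acid gene and LXR or efflux gene in each library (TMM-scaled CPM, log axis), allograft left and isograft right of each gene name, with the mean and SD of 3 libraries as black bars. Insig1, Acaca and Fasn are higher and Scd2, Abca1, Abcg1 and Mylip lower in every allograft library; Acly and Nr1h2 overlap, and total counts turn the sign of Acly.

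Within groups the members varied little. The SD was a median of 7.6% of the mean in allograft libraries, from 1.23% for Pmvk to 16.9% for Abca1, and a median of 6.16% in isograft libraries, from 0.753% for Elovl6 to 16.5% for Fasn.

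Other genes of the same routes were read from lists drawn up by function, against 28.7% higher and 29.1% lower among all genes tested. Of 8 further genes of isoprenoid and sterol metabolism, 4 rose and 1 fell, and their median was 0.33 on the log2 scale. Aacs, which activates acetoacetate for lipid synthesis, averaged 61.8 ± 3.94 CPM in allograft and 29.0 ± 1.92 CPM in isograft libraries (SD, n = 3 each). Nus1, a subunit of the enzyme that makes dolichol precursors from farnesyl diphosphate, averaged 60.8 ± 4.18 CPM in allograft and 30.6 ± 0.530 CPM in isograft libraries. Lbr, a nuclear membrane protein with sterol reductase activity, fell to 59.4 ± 3.90 CPM in allograft libraries, against 103 ± 2.79 CPM in isograft libraries.

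Among 6 genes of SREBP processing, 3 rose and 1 fell, with a median of 0.18. Mbtps2, the site-2 protease that frees SREBP, rose by 0.72 ± 0.12, and Mbtps1, the site-1 protease, fell by 0.30 on the log2 scale (SE 0.07). Erlin1, a membrane protein that helps hold SREBP back, rose by 0.58 ± 0.09. Their summed level was 228 to 242 CPM in allograft and 221 to 246 CPM in isograft libraries, which overlap.

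Of 8 further fatty acid genes, 6 passed the filter, and of these 4 rose and 2 fell. Acss2, which makes acetyl-CoA from acetate and is known as an SREBP target, had 2.63, 1.79 and 2.84 CPM in allograft and 11.6, 9.08 and 10.5 CPM in isograft libraries. Its log2 fold change of -2.10 ± 0.18 (edgeR adjusted p = 5.76e-09) is opposite in sign to those of Fasn and Acaca. Slc25a1, the mitochondrial citrate carrier upstream of Acly, rose by 0.64 ± 0.10, and Acsl4, which activates polyunsaturated fatty acids, by 0.89 ± 0.08.

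Of 12 further genes of LXR and sterol handling, 10 passed the filter, and 7 of these fell while the other 3 were not called, with a median of -0.49. Those not called, named after their values were seen, were Lpcat3 (0.034), Nceh1 (0.21) and Pltp (-0.59), the values being log2 fold changes. Npc2, which carries cholesterol out of lysosomes, had 111, 89.5 and 105 CPM in allograft and 204, 184 and 214 CPM in isograft libraries. Arl4c, an LXR target GTPase, had 42.0, 33.9 and 43.1 CPM in allograft and 70.7, 79.9 and 76.2 CPM in isograft libraries. For both genes the groups stood apart, with log2 fold changes of -0.98 ± 0.08 for Npc2 and -0.93 ± 0.09 for Arl4c. Rxra, a partner receptor of LXR, fell to 1.598 ± 0.182 CPM in allograft libraries, against 3.65 ± 0.194 CPM in isograft libraries. It rests on 41 to 50 counts per allograft library. Rxrb of the same list, named after its values were seen, was more abundant and fell less. It averaged 37.05 ± 1.05 CPM in allograft and 43.39 ± 1.70 CPM in isograft libraries, a log2 fold change of -0.23 ± 0.08. As one list the 12 genes summed to 295 to 331 CPM in allograft and 479 to 507 CPM in isograft libraries.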

How the data were processed

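Per the file headers, the authors counted read pairs over exons per Ensembl gene with featureCounts 1.6.0 on a HISAT alignment of unstated version. The deposited counts are raw and hold 1 library per file. The headers name the GRCm39 annotation, release 104, while GRCm38 and mm10 stand in the submitters' processing notes. Intervals of 28 of the 32 members do not overlap between these builds, and the lowest total of those members was 530 counts. Gene coordinates are GRCm39, as deposited. Promoter sequences are from RefSeq on GRCm38.p6. No strand or multi-mapping option stands in the recorded command, so overlapping antisense genes are not told apart and multi-mapped reads are left out.

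Genes were matched by Ensembl identifier (52083 of 55416 with a symbol) and kept by filterByExpr (minimum count 10, total 15), which left 14926 genes. TMM scaling and edgeR 4.0.16's quasi-likelihood test with robust estimation (R 4.3.3) compared the groups over all genes, with Benjamini-Hochberg adjustment at 0.05. The SE is the size of each fold change on the log2 scale over the root of its F statistic. The procedure was tested on simulated data in which few genes changed, equally in both directions. That test does not cover data like these, where 57.8% of genes were called. Alternatives included limma 3.58.1 voom and DESeq2 1.42.0. The members, lists and tests were chosen with earlier results of these data known. Each member is accounted for, and 3 genes of each further list are named, those with the smallest p. Besides these, Rxrb and the LXR list's genes that were not called are named. Within groups the chi-square per degree of freedom was 10.3 to 21.9, above sampling noise, so no library looked like a copy of another. Replicate numbers did not pair the libraries. Near-identical stretches were matches of at least 100 bases at 97% identity or more between GENCODE M21 transcripts.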

Additional observations from a re-analysis of the deposited data

How the results depend on the processing

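Each result was recomputed under 15 alternatives: RLE scaling, total counts, DESeq2, limma-voom, no low-count filter, a minimum of 5 CPM in 3 libraries, a replicate block, a gene length offset, B-lineage genes left out, and each of the 6 libraries left out. Of the 24 members called, 22 kept their direction and their call in every alternative that tested them, and the exceptions were Mvd and Scap. Hsd17b7, counted among the 22, did not pass the filter of at least 5 CPM, and neither did Acat2 and Fdps. These genes have no value under that alternative. Over the 32 members, 457 of 477 values kept direction and side of the threshold, 8 gained a call, 7 lost it and 5 turned sign. The values that turned were Nsdhl with total counts (-0.12) and without isograft replicate 3 (-0.0022), Sc5d with total counts (-0.046), and Acly with total counts (-0.19) and without isograft replicate 1 (-0.038). The number of fatty acid genes called lower, 1 in the main test, was 3 with total counts and 2 with the filter of at least 5 CPM. Total counts leave out the TMM factors, which were 0.915 to 0.936 in allograft and 1.07 to 1.10 in isograft libraries, and shifted all genes by a median of -0.22. The filter of at least 5 CPM shifted them by -0.025 and left 9638 genes to test. Why the factors differ between the groups, and why that filter changed the number called, was not tested. With each library left out in turn, Nsdhl ran from -0.0022 to 0.20, Acly from -0.038 to 0.084 and Elovl6 from 0.14 to 0.37. Other counts of members stayed within 1.5 times. Leaving out B-lineage genes removes those genes only. B cell RNA in the members' own counts stays, so the part of B cells was not tested by it.

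The replicate numbers share only a label: the correlations of same-numbered libraries' deviations from their group means were -0.063, 0.0029 and -0.034. With the replicate block 4064 genes rose and 4152 fell, and 15 members rose and 9 fell, as without it. Depth limits the low members Hsd17b7, Fdps, Dhcr7, Acat2 and Mvk, with 64 to 267 counts per library. Intervals and SEs describe these libraries only.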
